A study of Mus musculus with 2 samples.

Results

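The 10 genes described here are the neuropeptide precursor genes *Sst*, *Npy*, *Cck*, *Tac1*, *Penk* and *Cort* and the somatostatin receptor genes *Sstr1*, *Sstr2*, *Sstr3* and *Sstr4*. They were chosen by name from the 32285 genes of the count matrices, and all 10 were in both matrices. Their unique molecular identifiers (UMIs, one for each captured transcript) were summed per embryo within cell classes defined by marker genes and are given as CPM, the counts per 1000000 UMIs of that class. The cells came from the cerebral cortex of 2 wild-type mouse embryos of embryonic day 16.5, embryo 4 and embryo 5, with 1 droplet single-cell library each. Both embryos were wild-type controls from a line carrying Cre under *Eomes*, a gene of intermediate progenitors of the cortex, and neither received a treatment. The hemispheres were taken, the cortex was dissected out and dissociated with papain without a sort. There is a single condition, and the comparisons are between cell classes of the same embryos. With 2 embryos, every p-value measures the spread between these 2 animals and their libraries.

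Neuropeptides are cut from larger precursor proteins, stored in dense core vesicles and released to act on G protein-coupled receptors. In the cortex, somatostatin and neuropeptide Y mark interneurons born in the medial ganglionic eminence (MGE), which migrate into the cortex before birth. Cortistatin is a close relative of somatostatin that acts on the same receptors. Cholecystokinin occurs in interneurons of the caudal ganglionic eminence (CGE) and in projection neurons, whereas *Tac1* (substance P) and *Penk* (enkephalins) are best known from projection neurons of the striatum, which arise in the lateral ganglionic eminence (LGE). The somatostatin receptors couple to inhibitory G proteins and lower cyclic AMP. The excitatory lineage of the cortex runs from radial glial cells (RGC) through intermediate progenitor cells (IPC) to immature and then layered neurons.

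The somatostatin gene is a textbook target of cyclic AMP signalling through the cyclic AMP response element, so its promoter is shown beside those of *Npy*, the other peptide of MGE interneurons, and *Sstr2*, the receptor gene with most UMIs. The sequences are from RefSeq on GRCm38.p6 and run 5′ to 3′ on the strand of the gene, from 250 bases before to 50 bases after its start. Capitals mark TGACGTCA, the palindromic form of the element, which reads the same on both strands. *Sst* lies on chromosome 16 from 23889573 to 23891342, *Npy* on chromosome 6 from 49822710 to 49829507 and *Sstr2* on chromosome 11 from 113619327 to 113626028. The windows are chr16:23890795-23891094 on the minus strand for *Sst*, chr6:49822460-49822759 on the plus strand for *Npy* and chr11:113619077-113619376 on the plus strand for *Sstr2*. The window of *Sst* is set on a start inside the span given for the gene, not on its outer end at 23891342. Distances for *Sst* are counted from that inner start.
Sst promoter: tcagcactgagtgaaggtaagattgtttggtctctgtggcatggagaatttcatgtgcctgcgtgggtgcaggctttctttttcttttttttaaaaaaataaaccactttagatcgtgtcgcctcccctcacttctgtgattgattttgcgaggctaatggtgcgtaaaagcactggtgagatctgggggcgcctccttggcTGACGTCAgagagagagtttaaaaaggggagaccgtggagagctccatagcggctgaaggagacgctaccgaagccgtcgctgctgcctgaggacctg
Npy promoter: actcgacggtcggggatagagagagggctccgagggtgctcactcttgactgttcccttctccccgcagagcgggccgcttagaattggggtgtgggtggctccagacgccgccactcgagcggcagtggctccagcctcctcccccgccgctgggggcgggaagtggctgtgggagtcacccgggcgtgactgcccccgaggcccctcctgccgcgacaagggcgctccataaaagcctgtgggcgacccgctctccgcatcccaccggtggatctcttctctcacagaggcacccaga
Sstr2 promoter: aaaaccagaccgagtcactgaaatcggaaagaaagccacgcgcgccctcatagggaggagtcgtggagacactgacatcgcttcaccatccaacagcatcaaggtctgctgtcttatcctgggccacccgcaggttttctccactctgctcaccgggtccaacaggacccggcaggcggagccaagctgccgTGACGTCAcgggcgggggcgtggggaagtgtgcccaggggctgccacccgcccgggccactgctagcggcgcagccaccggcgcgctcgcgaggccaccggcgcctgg
The element began 48 bases before the start of *Sst* and 58 bases before that of *Sstr2*. The window of *Npy* does not hold these letters. Of the 8 members with a promoter entry, 2 held the element, beside 549 of all 27025 genes with an entry (2.03%). Counted by window, it was in 588 of all 32851 promoter windows (1.79%). *Penk* and *Sstr1* have no entry in the table.

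The libraries held 12825 and 12289 barcodes with 124318613 and 117679925 UMIs in embryos 4 and 5. After barcodes with under 1000 detected genes, with over 10% mitochondrial UMIs and with a doublet call were left out, 9932 and 10416 cells remained, with median depths of 10076 and 8851 UMIs, and 46 barcodes occurred in both libraries. The cells formed 26 clusters, of which 15 were named from markers into 12 classes. The other 11 clusters, with 38.4% and 40.1% of the cells, are called by their leading genes, and 22 classes and clusters had at least 10 cells in both embryos. The members and the peptide genes listed with them were kept out of the genes used for clustering. In the MGE interneuron-like class (681 and 651 cells), 6 of its 8 markers were higher than in any other class, *Lhx6* and *Nxph1* among them. For the CGE interneuron-like class (327 and 388 cells) this held for 5 of 8 markers, for the LGE-type GABAergic neuron-like class (401 and 265 cells) for 4 of 10, including *Isl1*, *Drd2* and *Six3*, and for the RGC-like class (846 and 823 cells) for 4 of 9. It held for 7 of 8 markers of the IPC-like class (576 and 601 cells) and for 4 of 8 of the immature excitatory neuron-like class (1787 and 1778 cells). No cluster could be named a deep-layer neuron class. The Hs3st4/Rgs6 cluster (960 and 1021 cells), which had the highest mean of the deep-layer markers, stands in for it, a choice made after the clusters were seen.

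*Sst* was concentrated in MGE interneuron-like cells. In that class 2528 and 3396 UMIs gave 543 CPM in embryo 4 (95% exact Poisson interval 522 to 565) and 781 CPM in embryo 5 (755 to 807), a mean of 662 ± 168 CPM (SD, n = 2 embryos). The class held 53.0% and 79.6% of all *Sst* UMIs of the kept cells. Both embryos were above every other class and cluster. An *Sst* UMI was found in 39.1% of its cells in embryo 4 (266 of 681) and 41.8% in embryo 5 (272 of 651), at a median depth of 6431 and 6387 UMIs. RGC-like cells, which should lack the gene, had a UMI in 3.31% and 1.70% of cells at deeper medians of 10018.5 and 8643 UMIs. When every cell was thinned to a depth of 2000 UMIs, *Sst* was detected in 27.3% and 31.4% of MGE interneuron-like cells and in 1.20% and 0.494% of RGC-like cells. The intervals throughout are exact binomial or Poisson ones at 95% and cover counting error only. Beside a count of 0 the limit given is instead that of 3 counts, and for a share of cells it limits the cells with a UMI, not those that express the gene.

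**Figure D1:**
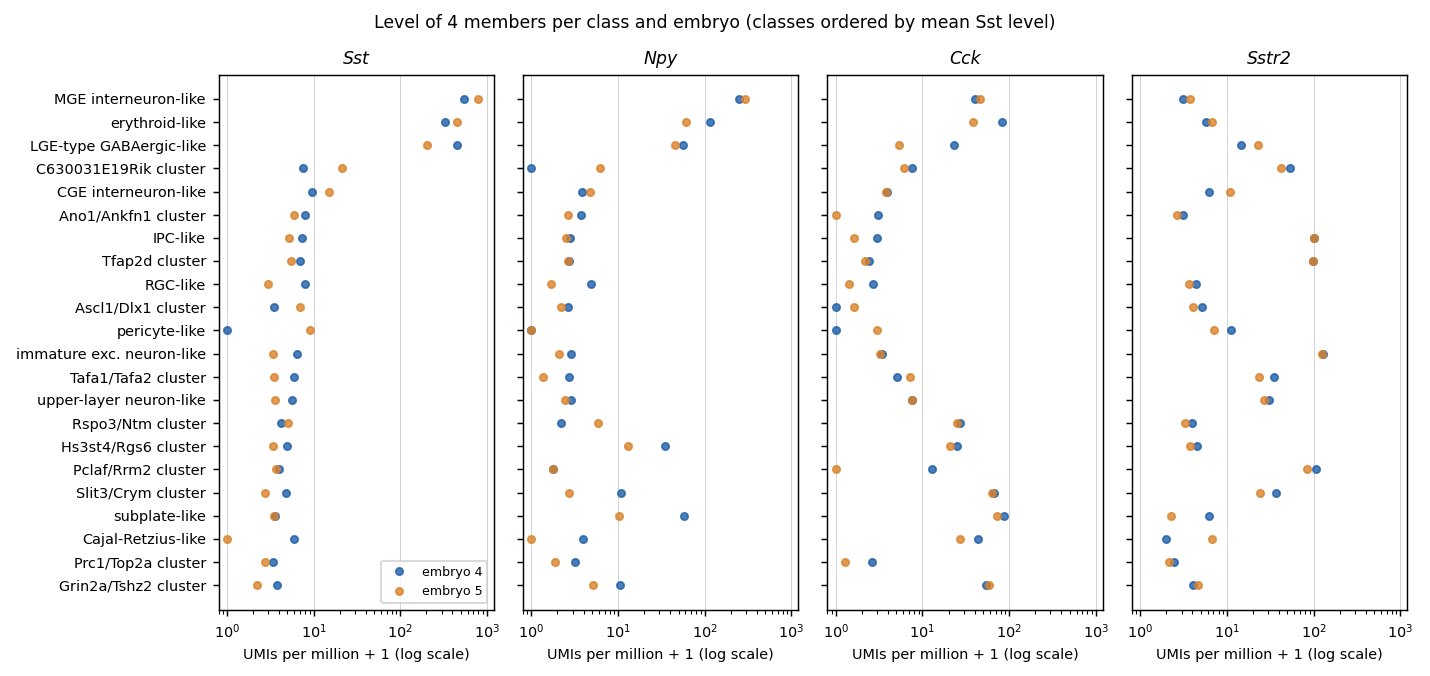
Level of *Sst*, *Npy*, *Cck* and *Sstr2* in each of 22 cell classes and clusters, as CPM + 1 on a log axis, with 1 point per embryo and classes ordered by mean *Sst*. *Sst* stood at 543 and 781 CPM in MGE interneuron-like cells, whereas *Sstr2* stood at 128 and 126 CPM in immature excitatory neuron-like cells.

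Within the MGE interneuron-like class the *Sst* UMIs were spread unevenly over cells. Cells with an *Sst* UMI had 9.50 and 12.5 *Sst* UMIs on average, and the highest single cells had 101 and 174. The 168 and 181 cells with at least 3 *Sst* UMIs held 95.1% and 96.2% of the *Sst* UMIs of the class. The 10 highest cells held 23.0% and 27.1%, and without them, an alternative chosen after seeing the data, the class stood at 429 and 583 CPM. The level of the class was thus carried by well over 100 cells in each embryo.

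The next levels of *Sst* rested on few barcodes. The erythroid-like class, 167 and 114 barcodes with median depths of 3592 and 2631 UMIs, had 329 and 446 CPM of *Sst* (387 ± 82.5, SD, n = 2), and LGE-type GABAergic neuron-like cells had 450 and 201 CPM (326 ± 176). These 2 classes overlapped each other and lay apart from the next class. In the LGE-type class 24 and 9 cells with at least 3 *Sst* UMIs held 98.4% and 98.1% of its *Sst* UMIs, and without its 10 highest cells it stood at 54.6 and 3.03 CPM. In the erythroid-like class 8 and 5 barcodes held 94.2% and 98.1%.

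**Figure D2:**
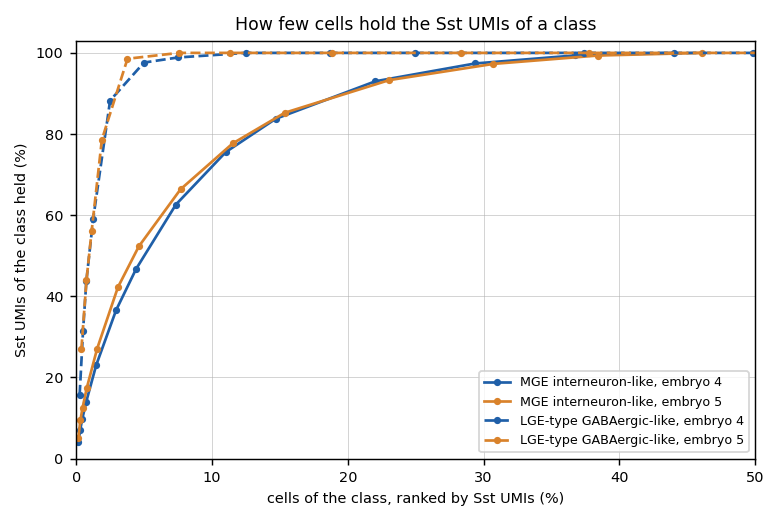
Cumulative percentage of the *Sst* UMIs of a class (vertical axis) held by its cells ranked from the highest *Sst* count (horizontal axis, percentage of the cells of the class), for each embryo, with solid lines for MGE interneuron-like and dashed lines for LGE-type GABAergic neuron-like cells. The 10 highest LGE-type cells held 88.3% and 98.6% of the *Sst* UMIs of that class, against 23.0% and 27.1% for the 10 highest MGE interneuron-like cells.

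The *Sst*-high cells of the LGE-type class often held markers of another class. Of those with at least 3 *Sst* UMIs, 79.2% and 88.9% had a UMI of *Nxph1* and 50% and 33.3% of *Lhx6*, both markers of MGE interneurons. *Isl1*, a marker of LGE-derived striatal neurons, was found in 0 of 24 cells, which allows a share of up to 12.5% with a UMI, and in 11.1% of the 9 cells in embryo 5. In *Sst*-high MGE interneuron-like cells the shares were 99.4% and 100% for *Nxph1*, 79.8% and 85.1% for *Lhx6*, and 1.19% and 0.552% for *Isl1*. When the cells were clustered at a finer resolution of 2, 31 of the 33 *Sst*-high LGE-type cells fell into an unnamed cluster led by *Cntn4* and *Snhg11* (154 and 59 cells), which had 947 and 615 CPM of *Sst*. The LGE-type class then stood at 18.6 and 4.64 CPM. In the unnamed cluster 41.6% and 40.7% of cells had *Nxph1*, against 25.1% and 11.3% in the LGE-type class at that resolution. *Isl1* was found in 3.90% and 3.39% against 38.7% and 47.6%. *Ebf1*, another marker of striatal neurons, went the other way, at 19.5% and 25.4% against 11.1% and 16.0%. *Gad1* and *Gad2*, the GABA-synthesizing enzymes, were found in fewer cells of the unnamed cluster. *Gad1* was in 42.2% and 32.2% against 83.8% and 84.4%, and *Gad2* in 49.4% and 35.6% against 94.1% and 96.7%. The barcodes with much *Sst* in the erythroid-like class had 706 and 470 CPM of *Gad1* and *Gad2*. Haemoglobin made up 0.0747% and 0.101% of their UMIs. Its barcodes with no *Sst* UMI had 118 and 80.5 CPM of *Gad1* and *Gad2* and 4.22% and 3.64% haemoglobin. Nuclear-retained RNA was low in the whole erythroid-like class, at 1240 and 1398 CPM. It stood at 789 and 201 CPM in the *Sst*-high barcodes and at 1286 and 1480 CPM in those with no *Sst* UMI. The *Sst*-high MGE interneuron-like cells had 24500 and 23774 CPM. The class is thus one of barcodes poor in such RNA, and the part of RNA quality in its *Sst* level was not tested.

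In the remaining classes *Sst* was low, and it was set against free RNA, which droplets take up from burst cells. CGE interneuron-like cells had 8.57 and 14.1 CPM, RGC-like 6.88 and 1.95, IPC-like 6.40 and 4.22, and immature excitatory neuron-like 5.41 and 2.36 CPM. In RGC-like cells 28 of 846 and 14 of 823 had a UMI. In embryo 4, 3 of these cells with at least 3 UMIs, up to 20 in 1 cell, held 53.6% of the *Sst* UMIs, and in embryo 5 each cell had 1 UMI. Pericyte-like cells, which should lack neuronal peptides, had 0 *Sst* UMIs in 51 cells of embryo 4 (exact interval 0 to 6.21 CPM) and 4 UMIs in 44 cells of embryo 5 (8.08 CPM, 2.20 to 20.7). In embryo 4 the CGE interneuron-like, RGC-like and IPC-like levels lay above the pericyte-like interval, and in embryo 5 the levels of all 4 classes lay within or below it. Subtracting the pericyte-like level would leave *Sst* at 658 CPM on average in MGE interneuron-like cells. In RGC-like cells it would leave 6.88 CPM in embryo 4, whereas the level of embryo 5 lies under the pericyte-like one.

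A mixture of transcripts from 1 source keeps its genes in a fixed proportion in every class. *Sst* made up 68.7% (67.2 to 70.2) and 72.9% (71.6 to 74.2) of the *Sst* and *Npy* UMIs together in MGE interneuron-like cells. The proportion was 63.6% and 73.7% in RGC-like, 77.8% and 74.1% in IPC-like, 74.2% and 68.6% in immature excitatory neuron-like, 75% and 78.9% in CGE interneuron-like and, among upper-layer neurons, 71.8% and 63.5%. In these 5 classes each embryo's interval included the proportion of the MGE interneuron-like cells of the same embryo. Some of these UMIs lay in single cells, with maxima per cell of 20 *Sst* and 9 *Npy* UMIs among RGC-like cells of embryo 4 and of 11 and 6 among CGE interneuron-like cells of embryo 5. The source of the low *Sst* and *Npy* UMIs in these classes was not tested. In the Hs3st4/Rgs6 cluster the proportion was 10.3% (7.69 to 13.5) and 16.8% (11.4 to 23.5), in the Grin2a/Tshz2 cluster 22.2% and 23.1%, and in subplate-like cells 4.40% (1.21 to 10.9) and 21.1% (6.05 to 45.6). These 3 lay below the MGE interneuron-like proportion in both embryos. LGE-type GABAergic neuron-like cells lay above it in both, at 89.0% (87.5 to 90.5) and 82.1% (78.4 to 85.3). The erythroid-like class had 74.5% (68.9 to 79.5) and 88.1% (82.3 to 92.5).

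**Figure D3:**
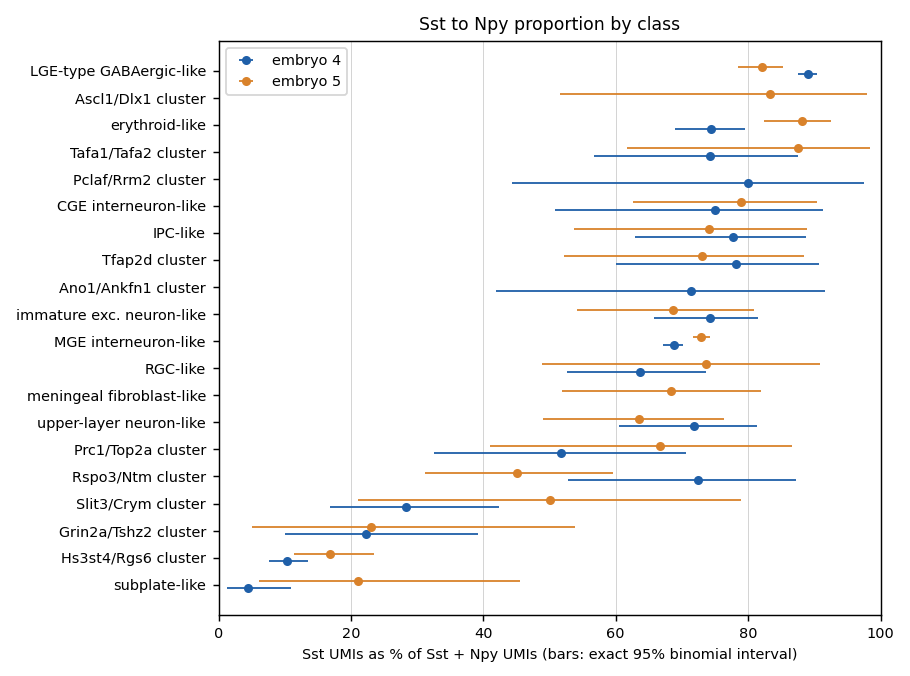
*Sst* UMIs as a percentage of *Sst* and *Npy* UMIs together, per class and embryo, with exact 95% binomial intervals as bars. RGC-like cells, at 63.6% and 73.7%, lie near the 68.7% and 72.9% of MGE interneuron-like cells, and the Hs3st4/Rgs6 cluster, at 10.3% and 16.8%, and subplate-like cells, at 4.40% and 21.1%, lie lower.

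*Npy* was also highest in MGE interneuron-like cells, where 1150 and 1261 UMIs gave 247 and 290 CPM (268 ± 30.3, SD, n = 2). A UMI was present in 30.1% and 31.5% of cells (205 in each embryo), against 1.77% and 0.365% of RGC-like cells. Thinned to 2000 UMIs per cell, the shares were 19.7% and 20.5% against 0.481% and 0.124%. The class lay apart from the erythroid-like class, at 113 and 60.4 CPM, which lay apart from the LGE-type class, at 55.4 and 44.0 CPM. With the finer clustering the LGE-type level was 4.44 and 1.33 CPM, and the Cntn4/Snhg11 cluster had 114 and 136 CPM.

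*Npy* was further found in cells of the excitatory lineage. The Hs3st4/Rgs6 cluster held 408 and 134 UMIs (33.6 and 12 CPM), and subplate-like cells, among the earliest-born neurons of the cortex, held 87 and 15 (56.7 and 9.30 CPM). Embryo 4 was the higher in both, by more than the counting intervals (in subplate-like cells 45.4 to 70.0 against 5.2 to 15.3 CPM). The subplate-like level rested on few cells. There 9 and 2 cells had at least 3 *Npy* UMIs, the 10 highest cells held 92.0% and 100% of the UMIs, and 5.07 and 0 CPM remained without them. The levels of both overlapped the LGE-type class or each other. In the Hs3st4/Rgs6 cluster, 38 and 20 cells had at least 3 *Npy* UMIs. Of these, 100% in both embryos had *Hs3st4* and 94.7% and 95% had *Tbr1*, a transcription factor of deep-layer neurons. *Gad1* and *Lhx6* were found in 0 of the 38 and 0 of the 20 cells, which allows shares of up to 7.89% and 15% with a UMI. In the *Npy*-high MGE interneuron-like cells (100 and 111), *Gad1* was found in 93.0% and 92.8% and *Tbr1* in 5% and 1.80%. *Sst* occurred in 10.5% and 5% of the *Npy*-high cells of the Hs3st4/Rgs6 cluster and in 78.0% and 83.8% of those of the MGE interneuron-like class. Thinned to 2000 UMIs, *Npy* was detected in 4.49% and 1.96% of Hs3st4/Rgs6 cells and in 7.76% and 1.48% of subplate-like cells.

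*Sst* and *Npy* were often found in the same MGE interneuron-like cell. Thinned to 2000 UMIs, *Npy* was present in 39.9% (32.7 to 47.4) and 41.6% (34.7 to 48.7) of cells with *Sst* but in 12.1% (9.35 to 15.3) and 10.9% (8.14 to 14.2) of those without. Conversely, *Sst* was found in 55.3% and 63.6% of cells with *Npy* and in 20.4% and 23.1% of cells without. The intervals of the paired shares did not overlap in either embryo. For *Cck* the shares were closer. It was found in 3.28% and 6.93% of cells with *Sst* and in 6.16% and 7.48% of cells without, with overlapping intervals. The thinned values leave out 11 and 8 MGE interneuron-like cells with under 2000 UMIs. In unthinned cells *Npy* was found in 47.4% and 51.5% against 19.0% and 17.2%, and with at least 2 UMIs needed for detection in 44.0% and 50% against 9.63% and 8.58%. The size of the shares thus moved with the setting, and those with *Sst* stayed above those without. *Cort* was found in 6.77% and 4.04% of unthinned cells with *Sst* against 1.20% and 1.32% of those without, with overlapping intervals in embryo 5.

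**Figure D4:**
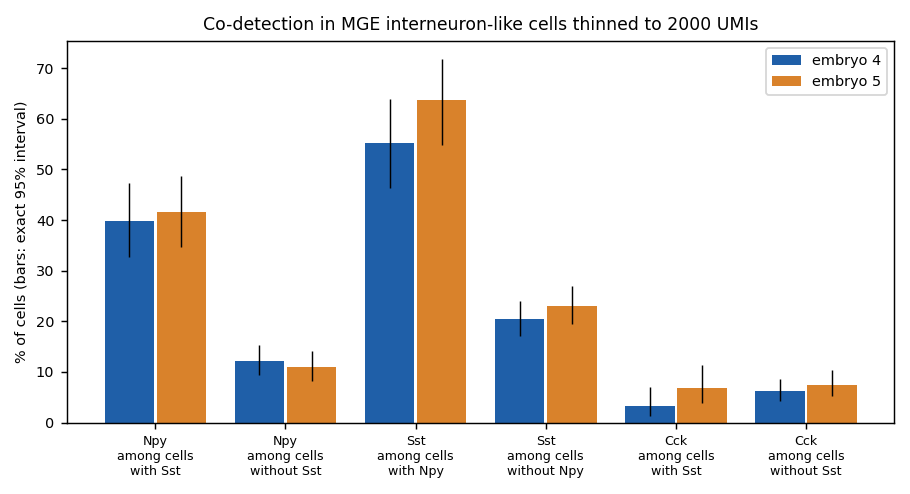
Percentage of MGE interneuron-like cells, thinned to 2000 UMIs, in which a second peptide gene was detected, for cells with and without the first, per embryo, with exact 95% binomial intervals. *Npy* was found in 39.9% and 41.6% of cells with *Sst* and in 12.1% and 10.9% of cells without, whereas the bars for *Cck* overlap.

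*Cck* had the widest distribution of the peptide genes. It was highest in subplate-like cells, at 86.7 and 70.7 CPM (133 and 114 UMIs), where 41.4% and 41.5% of cells had a UMI. The Slit3/Crym cluster (66.7 and 63.0 CPM), the Grin2a/Tshz2 cluster (52.9 and 57.1) and MGE interneuron-like cells (39.3 and 45.3) followed, and these 4 did not overlap one another. The erythroid-like class, at 82.7 and 37.4 CPM, overlapped all 4. MGE interneuron-like cells overlapped Cajal-Retzius-like cells, the *Reln*-expressing cells of the outermost layer, which had 43.2 and 26.5 CPM. CGE interneuron-like cells had 2.86 and 2.82 CPM and RGC-like cells 1.72 and 0.418 CPM. At 2000 UMIs per cell, *Cck* was detected in 15.5% and 20% of subplate-like, 5.37% and 7.31% of MGE interneuron-like and 0.241% and 0% of RGC-like cells. In Cajal-Retzius-like cells the 44 and 23 UMIs came from at most 10 cells per embryo. In the LGE-type class (22.0 and 4.35 CPM, 78 and 9 UMIs) the 10 highest cells of embryo 4 held 91.0% of them. *Cck* overlaps *Gm38661* on chromosome 9 of GRCm38.p6, which was close to 0 in these cells.

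*Tac1* was highest in the LGE-type class, with 116 and 46 UMIs (32.8 and 22.2 CPM), which is 75.3% and 66.7% of its UMIs. The 10 highest cells held 87.9% and 100% of these, and without them the class stood at 4.07 and 0 CPM. It was lower in the erythroid-like class (11.1 and 20.1 CPM) and at 2.58 and 2.07 CPM in MGE interneuron-like cells, and the 3 did not overlap. Of the LGE-type cells with at least 3 *Tac1* UMIs (12 and 6 cells), 66.7% in both embryos had *Isl1* and 66.7% and 83.3% had *Ebf1*, markers of striatal neurons. *Npy* was found in 0 of the 12 and 0 of the 6 *Tac1*-high cells, which allows shares of up to 25% and 50%. In contrast to the *Sst*-high cells, 13 of these 18 cells stayed in the LGE-type class at the finer resolution, where *Tac1* stood at 39.5 and 27.2 CPM. *Penk* was scarce, with 91 and 66 UMIs in all kept cells. The erythroid-like class had the highest mean, at 0 and 14.4 CPM, and Cajal-Retzius-like cells had 2.95 and 3.45 CPM (3 and 3 UMIs). *Penk* stood at 4.57 and 1.41 CPM in CGE interneuron-like cells (8 and 3 UMIs) and at 3.67 and 0.483 CPM in the LGE-type class (13 and 1). Immature excitatory neuron-like cells had 1.82 and 1.15 CPM (32 and 17). MGE interneuron-like cells had 0 *Penk* UMIs in both embryos, which allows up to 0.644 and 0.690 CPM. *Cort* had 58 and 37 UMIs in all, 51.7% and 51.4% of them in MGE interneuron-like cells (6.44 and 4.37 CPM). CGE interneuron-like cells had 1 and 0 *Cort* UMIs.

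*Sstr2*, a receptor that binds somatostatin and cortistatin, followed the excitatory lineage. Immature excitatory neuron-like cells had 2249 and 1861 UMIs (128 and 126 CPM; 127 ± 1.67, SD, n = 2), and IPC-like cells had 544 and 469 (99.4 and 99.0 CPM; 99.2 ± 0.320). RGC-like cells had 28 and 19 UMIs (3.44 and 2.65 CPM). The immature excitatory neuron-like class lay apart from all others, and IPC-like cells overlapped the proliferating Pclaf/Rrm2 cluster (107 and 83.3 CPM). The Tfap2d/4930467D21Rik cluster, with 97.3 and 96.7 CPM, lay next. Upper-layer neuron-like cells stood at 29.9 and 25.6 CPM and the Hs3st4/Rgs6 cluster at 3.54 and 2.78 CPM. Outside the excitatory lineage, LGE-type GABAergic neuron-like cells had 13.6 and 21.8 CPM, above the Hs3st4/Rgs6 cluster in both embryos. The immature class held 51.5% and 50.6% of all *Sstr2* UMIs, and IPC-like cells 12.4% and 12.8%.

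The *Sstr2* level was carried by many cells. A UMI was found in 61.6% and 57.0% of immature excitatory neuron-like cells and 48.1% and 43.9% of IPC-like cells, against 2.84% and 2.19% of RGC-like cells, whose median depth was higher (10018.5 and 8643 UMIs against 9562 and 8055.5 in the immature class). At 2000 UMIs per cell the shares were 21.8% and 22.3%, 17.6% and 19.1%, and 0.481% and 0.618%. The 10 highest cells held 3.16% and 3.49% of the UMIs in the immature class. MGE interneuron-like cells, which hold most *Sst*, had 10 and 12 *Sstr2* UMIs (2.15 and 2.76 CPM), a UMI in 1.17% and 1.84% of cells, which is near the RGC-like share.

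Within the named classes *Sstr2* differed from cluster to cluster. In the immature class the Unc5d/Cdh8 cluster had 169 and 170 CPM, with a UMI in 73.2% and 71.0% of cells, and the Rnd2/Luzp2 cluster had 69.6 and 58.4 CPM. The dividing cells of the Prc1/Top2a cluster had 1.43 and 1.15 CPM. *Sstr2* overlaps *Slc39a11*, a zinc transporter gene, on chromosome 11 of GRCm38.p6, and the strand setting of the counting is not given in the sources used here. *Slc39a11* had 130 and 153 CPM in IPC-like, 115 and 128 in immature, 38.7 and 38.8 in RGC-like, 67.1 and 68.1 in upper-layer and 25.6 and 35.4 CPM in MGE interneuron-like cells. The order of these classes is close to that of *Sstr2* over a narrower range, and its part in the *Sstr2* counts was not tested.

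**Figure D5:**
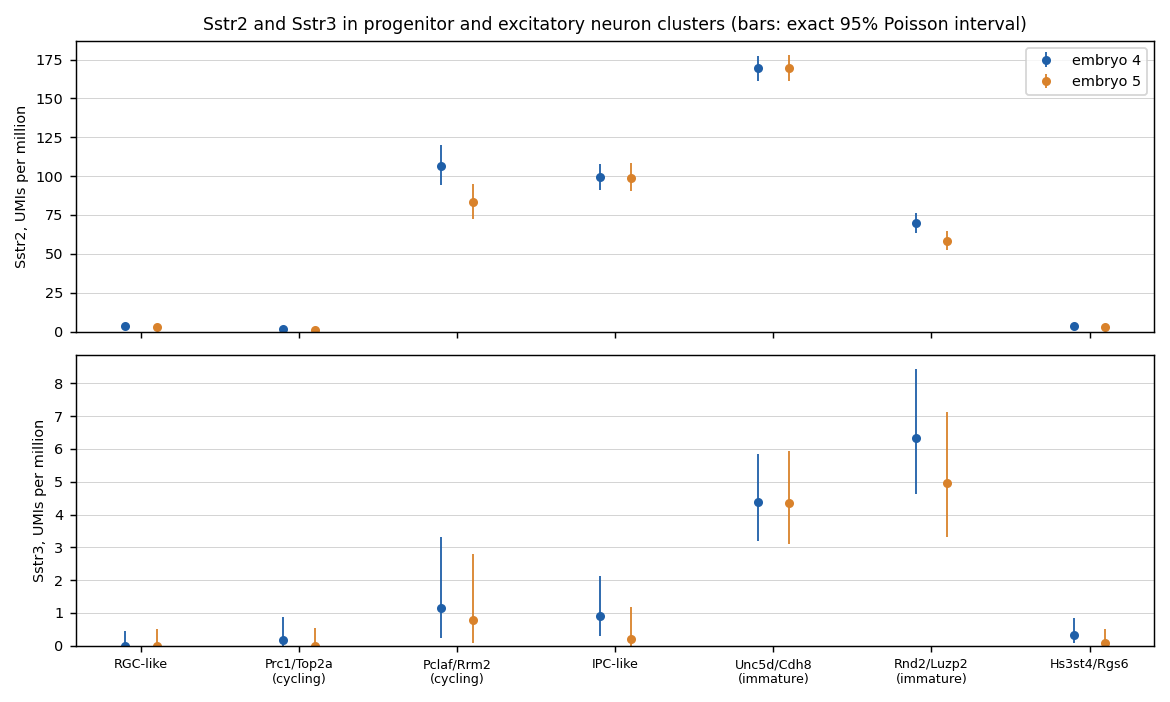
Level of *Sstr2* (upper panel) and *Sstr3* (lower panel) in progenitor and excitatory neuron clusters, in CPM with 1 point per embryo and exact 95% Poisson intervals as bars. *Sstr2* stood at 169 and 170 CPM in the Unc5d/Cdh8 cluster and at 3.44 and 2.65 CPM in RGC-like cells, and *Sstr3* stood at 4.37 and 4.35 CPM in the Unc5d/Cdh8 cluster.

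*Sstr3* was found mostly in immature and upper-layer neurons, at a low level. Unlike *Sstr2*, it stood at a similar level in both. It had 91 and 68 UMIs in immature excitatory neuron-like cells (5.18 and 4.59 CPM) and 53 and 60 UMIs in the upper-layer class (4.44 and 4.63 CPM), and these classes overlapped. The C630031E19Rik/Gm50368 cluster had a higher mean (3.27 and 10.3 CPM) on 1 and 2 UMIs. IPC-like cells had 5 and 1 UMIs (0.914 and 0.211 CPM), and RGC-like cells had 0 in both embryos, which allows up to 0.368 and 0.418 CPM. *Sstr1* stood lower still, with 53 and 74 UMIs in all cells. It was found in MGE interneuron-like (2.79 and 2.07 CPM), Tafa1/Tafa2 (1.32 and 3.38), LGE-type (1.41 and 2.90) and RGC-like cells (1.23 and 1.95), and neighbours in this order overlapped. *Sstr1* was present in 2.63% and 2.21% of unthinned MGE interneuron-like cells with *Sst* and in 0.241% and 0% of those without. These were 7 and 6 cells against 1 and 0, and the intervals overlapped in both embryos. Thinned to 2000 UMIs, it was found in 2.19% against 0.411% in embryo 4. In embryo 5 it was then found in 0 of 202 cells with *Sst* and 0 of 441 without. *Sstr4* had 1 UMI, in 1 CGE interneuron-like cell of embryo 4, so no level can be given.

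For the tests, the sums per class and embryo were compared with edgeR's quasi-likelihood test, and p-values were adjusted by the Benjamini-Hochberg method over all genes tested. *Sstr4* did not pass the filter on low counts in the comparisons, so 9 of the 10 members were tested in each. Sums of 2 classes from the same embryo share that animal, and the fold changes (log2, ± SE) are on the scale of normalized sums.

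MGE interneuron-like cells were first compared with CGE interneuron-like cells, the other migrating interneurons of the cortex. Of all 16810 genes, 12.9% were called, and 8 of 9 members were, 6 higher and 2 lower in MGE interneuron-like cells. *Sst* was higher by 5.93 ± 0.42 (edgeR, adjusted p = 2.18e-10), *Npy* by 6.41 ± 0.59 (adjusted p = 2.42e-08) and *Cck* by 3.98 ± 0.52 (adjusted p = 4.65e-06). With barcodes of 500 to 1000 genes added, the differences of *Sst* and *Npy* were 3.86 and 3.90. *Cort* was higher too (edgeR, adjusted p = 0.00699), with 49 UMIs against 1, a ratio of 21.1 with a counting interval of 3.62 to 850. *Tac1* was at least 3.02-fold (adjusted p = 0.0277) and *Sstr1* at least 3.16-fold higher (adjusted p = 0.0237), against a class with 0 UMIs set to a floor of 3 UMIs over both embryos. *Penk* was at least 8.51-fold lower by the same floor (adjusted p = 0.0214). *Sstr2* was lower by −1.57 ± 0.47 (edgeR, adjusted p = 0.027), 2.15 and 2.76 CPM against 5.14 and 9.87. The calls of *Tac1*, *Penk*, *Cort*, *Sstr1* and *Sstr2* were each lost in at least 1 alternative setting. The difference of *Tac1* turned to −2.72 (edgeR, adjusted p = 0.00302) at a clustering resolution of 0.6. No LGE-type class was named there, and 13 of the 18 *Tac1*-high LGE-type cells fell into the CGE interneuron-like class. The median log2 difference of the 9 members was 4.39, or 1.66 with the genes at 0 set to their bound, beside 0.01 over all genes.

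Against LGE-type GABAergic neuron-like cells, 7 of 9 members were called, 4 higher and 3 lower, while 19.0% of all genes were called. *Npy* was higher in MGE interneuron-like cells by 2.51 ± 0.34 (edgeR, adjusted p = 6.47e-06) and *Cort* with 49 against 2 UMIs (ratio 15.3, 4.0 to 130; adjusted p = 0.00282). *Sst* was higher by 1.11 ± 0.26 (edgeR, adjusted p = 0.00352), and this value depended on the few *Sst*-high LGE-type cells. It was 0.27 without embryo 5 and 1.96 without embryo 4, was 5.78 at a resolution of 2 and had an adjusted p of 0.259 by DESeq2. *Cck* was higher by 1.60 ± 0.33 (edgeR, adjusted p = 0.000909), with 3.38 without embryo 4 and 0.84 without embryo 5. *Tac1* was lower by −3.46 ± 0.49 (adjusted p = 1.42e-05), *Sstr2* by −2.67 ± 0.36 (adjusted p = 3.71e-06) and *Penk* at least 7.49-fold (adjusted p = 0.0183). *Sstr1* had a difference of 0.38 (adjusted p = 0.787).

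Among projection neurons, the Hs3st4/Rgs6 cluster was compared with upper-layer neuron-like cells, and 4 of 9 members were called beside 29.2% of all genes. *Npy* was higher in the Hs3st4/Rgs6 cluster by 3.88 ± 0.53 (edgeR, adjusted p = 3.2e-06) and *Cck* by 1.83 ± 0.28 (adjusted p = 1.29e-05). *Sstr2* was lower by −3.03 ± 0.20 (adjusted p = 1.12e-11) and *Sstr3* by −4.22 ± 0.55 (adjusted p = 6.84e-06). With a limit of 5% on mitochondrial UMIs the *Sstr2* difference was −1.07, and −1.38 at a resolution of 2. Cajal-Retzius-like cells differed from the Hs3st4/Rgs6 cluster in 1 of 9 members, with 31.4% of all genes called. *Npy* was lower, 3 UMIs against 542 (ratio 14.6, 4.98 to 71.2; edgeR, adjusted p = 0.0123), and *Cck* differed by 0.32 ± 0.37 (adjusted p = 0.563). In this comparison the genes called were 2322 higher and 3096 lower with a median of −0.12 over all genes, and 2897 and 2294 with a median of 0.01 under DESeq2's size factors.

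In the steps from RGC-like to IPC-like and from IPC-like to immature excitatory neuron-like cells, all members called were receptors. From RGC-like to IPC-like cells *Sstr2* rose by 5.08 ± 0.21 (edgeR, adjusted p = 3.18e-15), which is the step from 3.44 and 2.65 to 99.4 and 99.0 CPM, and ranged from 4.68 to 5.44 over the alternatives. *Sstr3* was at least 3.0-fold higher (adjusted p = 0.0145), on 6 UMIs against 0, and *Sstr1* was lower, with 1 UMI against 24 (ratio 16.0, 2.61 to 658; adjusted p = 0.0101). These were 3 of 9 members, beside 38.4% of all genes. Between IPC-like and immature excitatory neuron-like cells 2 of 9 members were called, beside 37.0% of all genes. *Sstr2* was lower in IPC-like cells by −0.49 ± 0.13 (edgeR, adjusted p = 0.00353), and *Sstr3* by −3.17 ± 0.54 (adjusted p = 0.000139). The small *Sstr2* difference was 0.06 when the called doublets were kept. The difference of *Penk*, −2.02, did not pass (adjusted p = 0.115). In both steps, and in the comparison with Cajal-Retzius-like cells, a smaller share of the members than of all genes was called. Several members had few UMIs in these classes, and *Sstr1* had 0 in both classes of the Cajal-Retzius-like comparison. Such counts limit what can be called, so no conclusion on the members is drawn from these shares.

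Other peptide genes were counted from 3 lists chosen with earlier results of these data known. Among all genes, 12.9% were called for MGE against CGE interneuron-like cells and 19.0% for MGE interneuron-like against LGE-type cells. The share was 31.4% for Cajal-Retzius-like cells against the Hs3st4/Rgs6 cluster and 29.2% for that cluster against the upper-layer class. It was 38.4% for IPC-like against RGC-like and 37.0% for IPC-like against immature cells. No conclusion is drawn from list counts near these shares. Of 24 other neuropeptide precursors 13 were tested, and edgeR called 0 between MGE and CGE interneuron-like cells, with 1 at an unadjusted p under 0.05. DESeq2 called 0 there as well, with 0 at that unadjusted limit. Against LGE-type cells 5 were lower and 0 higher, among them *Nts* (neurotensin), with 0.859 and 0 CPM against 15 and 39.2, and *Grp*, which was at least 8.03-fold lower. Cajal-Retzius-like cells had more *Pnoc*, the nociceptin precursor, at 23.6 and 39.1 CPM against 0.0823 and 0.269 (7.0 ± 0.63). IPC-like cells had less *Tac2* (neurokinin B) than immature neurons, 0.365 and 0.211 against 11.5 and 11.6 CPM. The median difference of the tested precursors was −1.11 against LGE-type cells, beside 0.00 over all genes. The other counts were 2 higher in Cajal-Retzius-like cells than in the Hs3st4/Rgs6 cluster, 2 lower in that cluster than in the upper-layer class, 1 lower in IPC-like than in RGC-like cells, and 1 higher and 3 lower in IPC-like than in immature cells. *Vip*, a marker of CGE interneurons in the adult, had 1 UMI in all kept cells.

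Among 14 receptor genes for the peptides of the members, 6 or 7 were tested per comparison. *Npy2r*, a receptor of neuropeptide Y, was higher in MGE than in CGE interneuron-like cells, 10.3 and 12.6 against 0.571 and 0.940 CPM (3.95 ± 0.78; edgeR, adjusted p = 0.00154). *Oprm1*, the mu opioid receptor, was at least 4.88-fold higher. *Tacr1*, the receptor of substance P, had 14.4 and 12.6 CPM in LGE-type cells, the class with most *Tac1*, and 1.29 and 0.460 CPM in MGE interneuron-like cells (−3.81). It was also higher in IPC-like cells, at 6.21 and 5.91 CPM, than in RGC-like cells (1.23 and 1.67) and immature neurons (0.171 and 0.135). Against LGE-type cells 1 receptor gene was higher and 3 were lower, with a median of −2.00. Toward immature neurons 1 was higher and 2 were lower in IPC-like cells, and edgeR and DESeq2 each called 0 between the Hs3st4/Rgs6 cluster and upper-layer neuron-like cells, with 1 at an unadjusted p under 0.05. In MGE against CGE interneuron-like cells 2 were higher, and 1 was higher in Cajal-Retzius-like cells against the Hs3st4/Rgs6 cluster and in IPC-like against RGC-like cells.

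All 14 genes of peptide processing and dense core vesicles were tested. In MGE against CGE interneuron-like cells 5 were higher and 0 lower, among them *Pam*, the enzyme that amidates peptides (516 and 527 against 94.8 and 60.1 CPM; 2.86), *Cadps2*, a priming factor of vesicle release (105 and 113 against 11.4 and 4.70; 3.90), and *Pcsk2*, a prohormone convertase (65.5 and 68.5 against 17.1 and 30.5; 1.55). In IPC-like against immature cells 10 of 14 were lower and 1, *Cadps2*, was higher (20.1 and 19.4 against 1.88 and 1.76 CPM). *Chgb*, a granin of the vesicle core, had 2.19 and 1.27 against 18.2 and 21.9 CPM there (−3.63). The median over the 14 genes was −1.48, or −1.31 with genes at 0 at their bound, beside −0.01 over all genes. Against LGE-type cells 2 were higher and 3 lower, and *Scg2*, another granin, had 3.44 and 1.84 against 74.0 and 34.8 CPM. In Cajal-Retzius-like cells against the Hs3st4/Rgs6 cluster 5 were higher and 2 lower, in that cluster against the upper-layer class 4 and 3, and in IPC-like against RGC-like cells 4 and 2. Of all genes, 31.4%, 29.2% and 38.4% were called in these comparisons.

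The genes most like 4 of the members over classes were found by Pearson's correlation of log2(CPM + 10) over the 22 classes and clusters, among 7106 genes. The points share the 2 libraries and differ in depth, and the correlations are descriptions. *Sst* was most like *Lhx6* (0.925), *Calb1* (0.895) and *Npy* (0.873), and *Npy* most like *Rph3a* (0.889), *Lhx6* (0.883) and *Sst*. These genes were highest in MGE interneuron-like cells. *Cck* was most like *Tceal5* (0.822), *Arhgap20* (0.817) and *R3hdm4* (0.813), whose highest classes differed. *Sstr2* was most like *A930024E05Rik* (0.890), *Lrrn3* (0.882) and *Plcxd2* (0.864), which were highest in immature excitatory neuron-like or IPC-like cells.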

How the data were processed

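Per the deposited matrices, the authors aligned the reads of the droplet 3′ libraries and counted UMIs per gene and barcode with Cell Ranger; the submitters' processing notes name version 7.0.0 and the build mm10, and the matrix headers version 7.1.0. The deposited values are raw counts, with no normalization. Whether introns were counted is not given in the sources used here. The libraries of 2 wild-type embryos were used, and other embryos were not analysed here.

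Barcodes with under 1000 detected genes or over 10% mitochondrial counts were left out, and doublets were called per library against 2 simulated doublets per cell at a rate of 0.8% per 1000 cells. Cells were normalized and clustered with scanpy 1.11.5 and leidenalg 0.10.2 (Python 3.11.15; 2000 variable genes, 30 principal components, 20 neighbours, resolution 1). Clusters were named from 18 marker lists. A name needed a marker mean of at least 0.5, at least 3 markers detected in 10% of cells, a margin of 0.25 over the next class and no conflict with the leading genes. This rule was set after the clusters were seen. Counts were summed per class and embryo, sums of under 10 cells were dropped, and the sums of all named classes and the pooled unnamed cells were fitted with edgeR 4.0.16 in R 4.3.3 (TMM normalization, its default filter on low counts, quasi-likelihood test). A gene was called at an adjusted p under 0.05. DESeq2 1.42.0, other filters, other resolutions, leaving out each embryo and a block for the embryo were tried as alternatives. The scripts were tested on simulated data. Same-numbered sums come from the same animal. Their deviations from the class means had correlations of 0.125 to 0.394 over the 6 comparisons.

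The members and the lists of related genes were chosen with earlier results of these data known. Genes outside the members were named where they were on those lists and called, or were highest in a class. Promoters and gene positions are from RefSeq on GRCm38.p6, and 8 of 10 members had a promoter. UMIs correct for amplification, and intervals cover counting error only. Depth was 124318613 and 117679925 UMIs per library.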

Additional observations from a re-analysis of the deposited data

Results flagged for a closer look

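Barcodes with under 1000 detected genes were left out of every comparison, and members were detected in them above the level of 3 UMIs (1.51 and 2.09 CPM). The 1772 and 765 such barcodes of embryos 4 and 5 held 1986986 and 1435318 UMIs, of which haemoglobin made up 25.0% and 56.6%. *Sst* stood at 85.6 and 83.6 CPM in them, compared with 46.0 and 43.8 CPM in the kept cells. *Npy* stood at 23.2 and 22.3 CPM, *Cck* at 16.1 and 9.06 CPM and *Sstr2* at 12.1 and 10.5 CPM. The nuclear-retained transcripts stood at 2937 and 1802 CPM in these barcodes and at 18781 and 19109 CPM in the kept cells. The part of free RNA or of damaged cells in these levels was not tested.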

How the results depend on the processing

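The 6 comparisons between classes gave counts of called genes within 1.5 times of those reported in 55 of 59 alternatives. The count for MGE against CGE interneuron-like cells was 2164 and became 1020 with at least 500 detected genes, 1051 with at most 5% mitochondrial counts and 824 with doublets kept. That for MGE interneuron-like against LGE-type cells was 3199 and became 1674 with doublets kept, and it was not run at a resolution of 0.6, where no such class was named. With a block for the embryo the counts were 2441, 3706, 5597, 6262, 7284 and 7092 in the order MGE against CGE, MGE against LGE-type, Cajal-Retzius-like against Hs3st4/Rgs6, Hs3st4/Rgs6 against upper-layer, IPC-like against RGC-like and IPC-like against immature cells, and no call of a member changed. For the tests of members that were called and 3 others given with their values (*Sstr1* in MGE against LGE-type, *Cck* in Cajal-Retzius-like and *Penk* in IPC-like against immature cells), 262 alternatives kept their direction and side of the threshold, 15 lost the call, 4 gained it, 13 untested ones moved and 6 changed sign. These 6 were *Tac1* in MGE against CGE interneuron-like cells at a resolution of 0.6 (−2.72), *Cck* in Cajal-Retzius-like cells against the Hs3st4/Rgs6 cluster with at least 500 genes (−0.24), at most 5% mitochondrial counts (−0.35), doublets kept (−0.66) and a resolution of 0.6 (−0.13), and *Sstr2* in IPC-like against immature cells with doublets kept (0.059). The *Sstr2* difference was also −0.24 and not called with at least 500 genes (adjusted p = 0.0747) or at most 5% mitochondrial counts (adjusted p = 0.0525). The causes were not tested. Over all 29 tests of members that were not called, most of them outside that tally, 15 had the other sign and 3 were called in at least 1 alternative. Levels per class stayed within 1 SD between embryos in 120 alternatives and moved further in 60, of which 16 left out the 10 highest cells. Shares of cells stayed in 32 and moved in 27, and shares of co-detection stayed in 2 and moved in 6. Leaving out 1 embryo counts as staying for every level and share, since either of 2 values always lies within 1 SD of their mean. Those entries are in the counts that stayed and do not measure stability. Depth limits *Sstr4*, with 1 UMI, and every statement on *Sstr1*, *Penk* and *Cort*, which rest on under 100 UMIs per embryo.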

Other observations

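Among the peptide genes outside the members, *Pnoc* was highest in LGE-type GABAergic neuron-like cells (42.1 and 50.8 CPM), *Nts* in the Tfap2d/4930467D21Rik cluster (63.6 and 18.4 CPM) and *Tac2* in the Slit3/Crym cluster (24.0 and 4.58 CPM). *Oprm1* was highest in subplate-like cells, at 30.6 and 42.8 CPM. Of the processing genes, *Cadps* was highest in the Slit3/Crym cluster (930 and 864 CPM), *Pam* in the Tfap2d/4930467D21Rik cluster (850 and 903 CPM) and *Pcsk1n* in Cajal-Retzius-like cells (477 and 484 CPM). The barcodes left out as doublets had 31.9 and 66.4 CPM of *Sst*, 27.1 and 28.2 CPM of *Npy* and 30.6 and 30.7 CPM of *Sstr2*. The 50 meningeal fibroblast-like cells of embryo 5, a class with 1 cell in embryo 4, had 15.3 CPM of *Penk*.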
